A study of Mus musculus with 18 samples.

Results

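The 10 genes described here, Nuak1, Stk10, Calcoco1, Ankrd44, Fam189a2, Plcxd2, Tbc1d9, Dab1, Slc38a3 and Hsd17b14, were picked because their counts were lower after ultraviolet B (UVB) light in mouse epidermis in one or more genotypes. They are 10 of 56246 genes in a table of raw counts, and all 10 were among the 18910 genes that passed a filter on low counts and were tested. Since the UVB differences chose these genes, those differences are given as a description, with no test. The RNA came from dorsal epidermis, scraped with a razor blade, of male mice of 10 weeks. The irradiated mice had been shaved 48 h before 1 exposure to 180 mJ/cm2 and were sampled 24 h after it. The labels give no separate shaving or sampling schedule for the unirradiated mice. WT mice carry intact osteopontin (OPN, gene Spp1), a secreted phosphoprotein. OPN-null mice lack it, and K14-OPN mice carry an OPN transgene driven by the keratin 14 promoter, which acts in basal keratinocytes, on the OPN-null background, so that both of these genotypes share the deletion. WT had 2 unirradiated and 3 irradiated libraries, OPN-null 3 and 4, and K14-OPN 3 and 3. Libraries are named below by genotype and the number in their labels. The labels do not name the animal of a library. Each p-value therefore reflects how much these libraries varied, which can include technical variation.

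UVB is absorbed in the epidermis, where it damages the DNA of keratinocytes and is followed by stress signalling, inflammation and a wave of proliferation. The 10 genes do not form a single pathway. Nuak1 and Stk10 encode protein kinases, Calcoco1 a selective autophagy receptor, Ankrd44 a regulatory subunit of protein phosphatase 6, and Dab1 an adaptor of the reelin receptors. Tbc1d9 belongs to the TBC domain family, many members of which switch off Rab GTPases of vesicle traffic, and Plcxd2 carries a phospholipase C X domain. Fam189a2 encodes a membrane protein that in human cells binds the ubiquitin ligase ITCH. Slc38a3 encodes a glutamine transporter, and the human HSD17B14 enzyme oxidises hydroxysteroids such as oestradiol.

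The promoters of 8 of the 10 genes were found in the RefSeq table (build GRCm38.p6), while Slc38a3 and Hsd17b14 were not. Dab1 had 2 starts, so 9 promoters were read, each as the 250 bases before the start. The motif GGGCGG, the core of the GC box bound by Sp1, was searched for as exact letters on both strands. It was present in 7 of these 9 promoters, against 32.7% of all 32851 promoters and 54.1% of the 14107 promoters of coding genes that were tested for expression. CCAAT, searched in the same way, was in 4 of 9, against 33.8% of all promoters. The sequences below show the range from a promoter with 5 GC boxes to one with none. They run 5′ to 3′ on the strand of the gene, and capitals mark the GC box and CCAAT motifs on either strand, so that a GC box on the other strand reads CCGCCC. The Nuak1 window is chr10:84440669-84440918 on the minus strand, that of Calcoco1 is chr15:102722179-102722428 on the minus strand, that of Plcxd2 is chr16:46010414-46010663 on the minus strand, and that of Tbc1d9 is chr8:83165102-83165351 on the plus strand.
Nuak1: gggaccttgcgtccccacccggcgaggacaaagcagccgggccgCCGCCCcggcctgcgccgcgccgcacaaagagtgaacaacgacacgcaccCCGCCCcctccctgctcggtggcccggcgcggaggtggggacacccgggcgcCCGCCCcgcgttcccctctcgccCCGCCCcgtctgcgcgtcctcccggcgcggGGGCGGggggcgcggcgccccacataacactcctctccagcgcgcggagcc
Calcoco1: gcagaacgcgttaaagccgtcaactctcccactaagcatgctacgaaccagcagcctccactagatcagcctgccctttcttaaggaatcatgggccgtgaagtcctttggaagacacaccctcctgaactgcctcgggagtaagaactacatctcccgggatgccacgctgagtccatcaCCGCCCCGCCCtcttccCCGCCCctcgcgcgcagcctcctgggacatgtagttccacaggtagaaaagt
Plcxd2: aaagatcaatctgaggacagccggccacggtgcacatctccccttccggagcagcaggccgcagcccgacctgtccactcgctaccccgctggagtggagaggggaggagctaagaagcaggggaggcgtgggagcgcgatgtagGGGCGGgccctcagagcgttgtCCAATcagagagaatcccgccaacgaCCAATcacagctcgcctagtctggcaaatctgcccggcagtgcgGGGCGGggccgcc
Tbc1d9: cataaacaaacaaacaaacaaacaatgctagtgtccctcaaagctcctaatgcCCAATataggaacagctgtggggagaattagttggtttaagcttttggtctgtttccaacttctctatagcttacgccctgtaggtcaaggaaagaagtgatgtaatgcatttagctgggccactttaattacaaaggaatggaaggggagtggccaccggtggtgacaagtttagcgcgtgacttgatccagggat

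The Nuak1 window held 5 GC boxes, no CCAAT and 38 CpG dinucleotides, with a GC content of 79.2%. Calcoco1 had 3 GC boxes at a GC content of 57.6%, 2 of them overlapping by 1 base, and Plcxd2 had 2 GC boxes and 2 CCAAT motifs at 65.6%. Tbc1d9 differed from them in composition, with 4 CpG dinucleotides, a GC content of 44% and a single CCAAT. Over the 9 promoters the median GC content was 71.2%, against 58.8% for promoters of tested coding genes and 52.4% for all promoters. The E-box CACGTG was found in Fam189a2 alone, against 6.02% of all promoters. The E2F-type motif TTCCCGC was also found once, again in Fam189a2, against 3.82% of all promoters. The AP-1 motif TGANTCA, searched on both strands like all others, was in none of the 9 windows, against 6.75% of all promoters. Likewise the cAMP response motif TGACGT was in none, against 6.47%. The TATA box letters TATAAA were in none, against 12.4%, and the same held for TTTGAA, against 16%. Among promoters of tested coding genes the shares were 5.28% for TGANTCA, 9% for TGACGT, 7.91% for TATAAA and 11.1% for TTTGAA. At such shares, none in 9 windows is not read as a lack. A match is a description of these letters and not of a bound site.

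The 18 libraries held between 3696865 and 26068614 reads counted in genes, with 12874 to 25483 genes detected. Levels are given as CPM, that is, counts scaled to a common library size, with sizes adjusted by the trimmed mean of M-values (TMM). Spp1 was read as a check of the genotype labels. OPN-null libraries held at most 7.569 CPM of Spp1, and K14-OPN libraries 34.53 to 758.4 CPM. Among unirradiated WT libraries, WT 10 held 45.16 CPM, but the library labelled WT 11 held 2.534 CPM, within the OPN-null range, so its label was not borne out by Spp1. Irradiated WT libraries 6 and 7 held 272.3 and 385.3 CPM, and irradiated WT 8 held 13.21 CPM. WT 11 and irradiated WT 8 are the 7SK-rich WT libraries, a kind defined next, and WT results include them unless given without them. Keratinocyte markers summed to between 7680 and 42800 CPM, and none of the 10 markers was at 0 in any group. Libraries were of 2 kinds that the labels do not mention. In 6 libraries, exactly 1 per group, the small RNA gene Rn7sk had more counts than Lars2 (7SK-rich), and in the other 12 it was the reverse (Lars2-rich). The unirradiated libraries WT 10 and K14-OPN 11 held hair shaft keratin and keratin-associated RNA at summed levels of 103000 and 118000 CPM, against 342 CPM or less in all other libraries.

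All 10 genes had lower fitted levels after UVB in all 3 genotypes. The median log2 fold change of the 10 was -2.99 in WT, -3.12 in OPN-null and -3.36 in K14-OPN, while the median of all 18910 genes tested was -0.15, 0.02 and -0.18. The WT median was -3.2 without the library labelled WT 11, -2.94 without irradiated WT 8 and -3.25 in Lars2-rich libraries only, which leaves out both. For -3.2 and -3.25 the only unirradiated WT library is WT 10, which is rich in hair shaft RNA. Every irradiated library lay below every unirradiated one of its genotype for 10 of the 10 genes in WT, 10 in OPN-null and 9 in K14-OPN. Over all genes tested this held for 13.7% in WT, 7.84% in OPN-null and 9.21% in K14-OPN, and in all 3 genotypes at once for 2.15%, among them 9 of the 10 genes. The exception was Dab1 in K14-OPN. At a Benjamini-Hochberg adjusted p below 0.05 in the quasi-likelihood test of edgeR, 0.0317% of all genes fell and 0.0635% rose in WT, 1.55% fell and 1.85% rose in OPN-null, and 0.55% fell and 0.508% rose in K14-OPN. In a model that also held a term for library kind, these shares were 1.73% and 1.99% in WT, 6.5% and 7.22% in OPN-null, and 4.43% and 3.28% in K14-OPN. They are the background, and nothing is read from them for the 10 genes, which the same contrasts chose.

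The difference was present in both kinds of library. Among 7SK-rich libraries, with 1 irradiated and 1 unirradiated library per genotype, the 10 genes had median differences in log2 CPM of -2.81 in WT, -3.49 in OPN-null and -3.55 in K14-OPN. Among Lars2-rich libraries the medians were -3.3, -3.28 and -2.88. All 10 genes, chosen for this direction, were below 0 in each of these 6 comparisons. Of all genes tested, 53%, 51.9% and 51.7% were below 0 in 7SK-rich and 42.1%, 38% and 45.3% in Lars2-rich libraries.

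**Figure D1:**
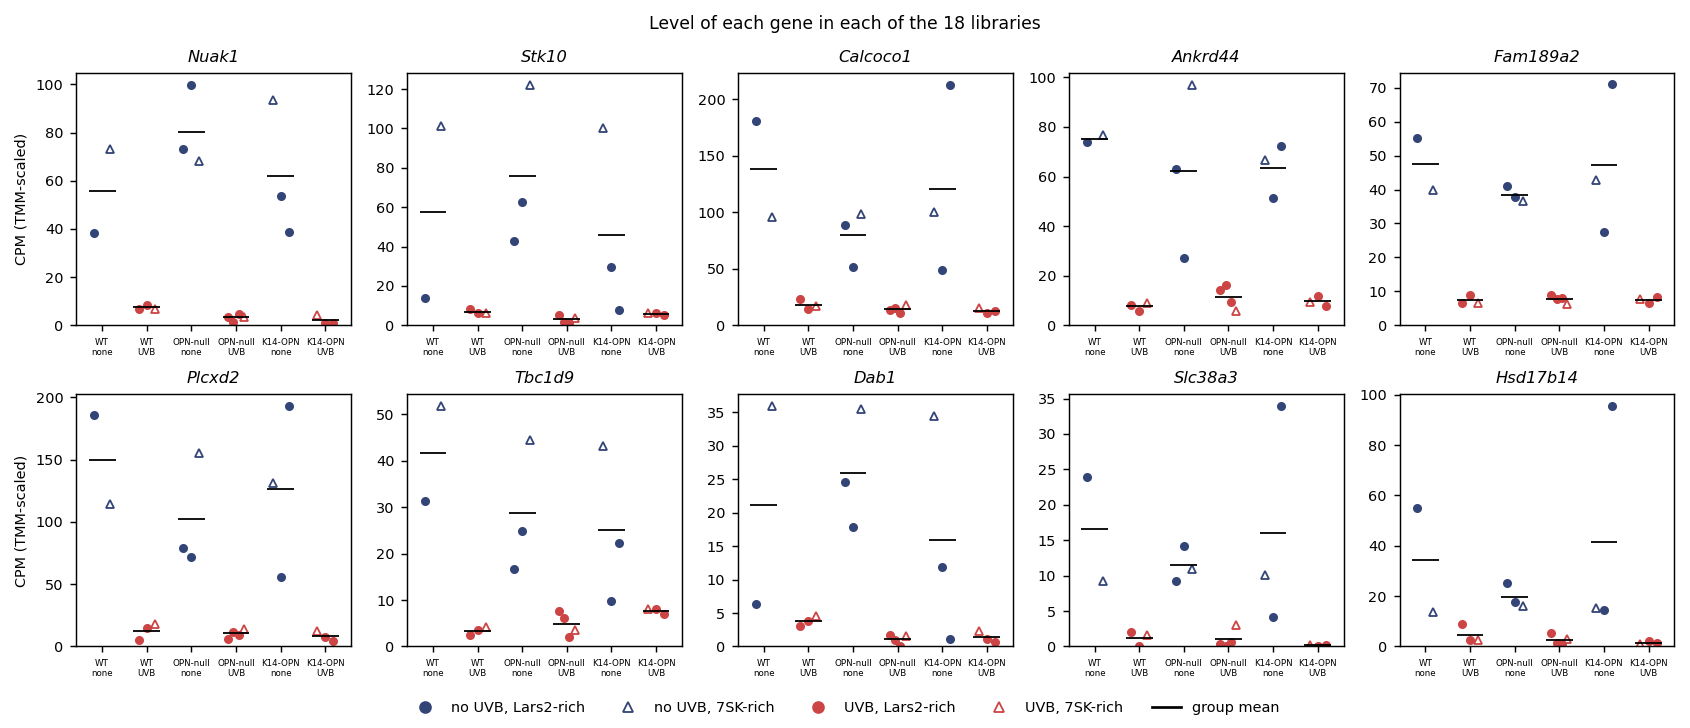
Level of each of the 10 genes in the 18 libraries, in CPM on a linear axis from 0, by genotype and UVB state. Points are libraries (filled circles Lars2-rich, open triangles 7SK-rich), bars are group means, blue is unirradiated and red irradiated. Irradiated libraries sit near the bottom of every panel, and the unirradiated ones are spread widely for Stk10, Dab1 and Hsd17b14.

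Nuak1 encodes an AMPK-related kinase that is activated by LKB1 and acts on the myosin phosphatase complex and cell adhesion. The gene spans 69693 bases at chr10:84370905-84440597 on the minus strand of GRCm38. In WT epidermis Nuak1 stood at 38.4 and 73.1 CPM without UVB and at 6.88, 8.65 and 6.94 CPM after it. In OPN-null epidermis it stood at 73, 99.7 and 68.2 CPM without UVB and at 3.29, 1.53, 4.66 and 3.63 CPM after it. In K14-OPN epidermis the unirradiated libraries had 93.7, 53.8 and 38.8 CPM and the irradiated ones 4.36, 0.957 and 0.954 CPM. The groups of each genotype were far apart, and the irradiated WT libraries were the highest of the irradiated libraries, with no overlap with those of the other genotypes. Fitted log2 fold changes of Nuak1 were -2.9 ± 0.626 (SE of the fit) in WT, -4.6 ± 0.571 in OPN-null and -4.89 ± 0.651 in K14-OPN. The WT value was smaller than the OPN-null value by 1.7 ± 0.824 on the log2 scale, a difference given with no test because it rests on the libraries that chose the gene. Without the library labelled WT 11 the WT value was -2.35.

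The list of relatives of Nuak1 held 21 genes, namely related kinases, LKB1 and its partners, and the myosin phosphatase subunits Ppp1r12a and Ppp1cb. Of these, 1 fell and 1 rose after UVB in OPN-null (edgeR), and none passed in WT or K14-OPN. In the model with library kind Sik1 and Brsk1 also fell in OPN-null (edgeR adjusted p = 0.0178 and 0.0346), and Mark2 and Brsk2 fell in K14-OPN (adjusted p = 0.045 and 0.0175). Nuak2, the closest relative of Nuak1, rose. It went from 10.6 ± 8.75 CPM (SD, n = 3) to 45.4 ± 8.49 CPM (n = 4), a log2 fold change of 2.03 ± 0.542 (edgeR adjusted p = 0.0485). In WT and K14-OPN its log2 fold changes were 1.05 ± 0.622 and 0.98 ± 0.542 and did not pass (edgeR adjusted p = 0.514 and 0.425). Stradb, a pseudokinase partner of LKB1, fell in OPN-null from 13.1 ± 6.18 to 2.82 ± 0.192 CPM, by 2.2 ± 0.468 on the log2 scale (edgeR adjusted p = 0.0175). Stk11, which encodes LKB1, had log2 fold changes of 0.6 to 0.68 in the 3 genotypes and passed in none (edgeR adjusted p from 0.513 to 0.708). The call for Nuak2 held in 6 of 18 fits that each left out 1 library, with an adjusted p of 0.133 without unirradiated OPN-null 8, and in 6 of 7 other alternatives. That for Stradb held in 15 of 18 and reached an adjusted p of 0.0778 without unirradiated OPN-null 9, and it held in 5 of 7 others.

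Stk10 encodes a STE20-type kinase that phosphorylates the ezrin, radixin and moesin proteins, which link actin to the membrane, and it is well known in lymphocytes. Unirradiated WT 10 and the library labelled WT 11 had 13.8 and 101 CPM of Stk10, and irradiated ones 8.15, 6.07 and 6.27 CPM. OPN-null libraries had 42.7, 62.7 and 122 CPM without UVB and 5.33, 1.53, 1.23 and 3.83 CPM after it. K14-OPN libraries 2, 1 and 11 had 100 CPM, 29.4 CPM and 7.62 CPM without UVB, and 6.19, 6.12 and 5.51 CPM were read after it. Groups did not overlap, but the margin was narrow in WT and K14-OPN, where WT 10 and K14-OPN 11, the libraries with hair shaft RNA, were the lowest of their groups. For Stk10 the log2 fold change was -3.07 ± 0.887 in WT, -4.67 ± 0.808 in OPN-null and -2.95 ± 0.837 in K14-OPN. It was -1 in WT without the library labelled WT 11 and -1.63 in K14-OPN without unirradiated K14-OPN 2, both 7SK-rich. Of 11 STE20 kinases and ERM proteins none passed the test in any genotype. Slk, the closest relative of Stk10, had log2 fold changes of 0.32 ± 0.463, 0.58 ± 0.389 and 0.64 ± 0.412 in WT, OPN-null and K14-OPN (edgeR adjusted p = 0.846, 0.414 and 0.514). Msn, which encodes moesin, rose by 2.16 on the log2 scale in OPN-null in the model with library kind (edgeR adjusted p = 0.0232). In that model Stk4 fell in K14-OPN with a log2 fold change of -0.97 (edgeR adjusted p = 0.0302) and Stk25 rose there by 1.17 (adjusted p = 0.0489).

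Calcoco1 encodes a receptor that brings pieces of endoplasmic reticulum to autophagosomes, and it was first described as a coactivator of nuclear receptors. Its level in WT was 181 and 95.6 CPM without UVB and 23.2, 14.7 and 17.3 CPM after it. OPN-null libraries had 88.8, 52 and 98.9 CPM without UVB and 13.8, 15.8, 10.5 and 18.4 CPM after it. K14-OPN libraries had 100 CPM, 48.8 CPM and 213 CPM without UVB and 15.6, 10.6 and 13.1 CPM after it. The irradiated libraries lay in a narrow band whatever the genotype, below all unirradiated libraries. The log2 fold changes of Calcoco1 were -2.91 ± 0.527, -2.45 ± 0.443 and -3.2 ± 0.505 in WT, OPN-null and K14-OPN. Without unirradiated WT 10 the WT value was -2.29, and without unirradiated K14-OPN 11 the K14-OPN value was -2.51.

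Of 17 other autophagy receptors and their partners, 1 rose and none fell. Sqstm1, which encodes the autophagy receptor p62, went up in OPN-null from 80 ± 18.5 to 262 ± 63.3 CPM, by 1.71 ± 0.447 on the log2 scale (edgeR adjusted p = 0.0447). Its log2 fold changes were 1.84 ± 0.542 in WT and 0.77 ± 0.455 in K14-OPN (edgeR adjusted p = 0.138 and 0.461). The OPN-null call held in 7 of 18 fits that left out 1 library and reached an adjusted p of 0.153 without unirradiated OPN-null 9, and it held in 5 of 7 other alternatives. With library kind as a term, Sqstm1 rose in WT and OPN-null (edgeR adjusted p = 0.0364 and 0.00723). Among receptors of the endoplasmic reticulum on the list, Retreg1 and Atl3 fell in OPN-null and K14-OPN, and Tex264 and Sec62 fell in K14-OPN, by 0.83 to 1.54 on the log2 scale in that model. Ccpg1 and Rtn3 passed in no genotype (edgeR adjusted p from 0.119 to 0.686), and none of these 6 genes passed without the kind term. Gabarapl2 and Map1lc3a encode ubiquitin-like proteins of the autophagosome. In that model they fell by 1.63 and 1.44 in K14-OPN (edgeR adjusted p = 0.00442 and 0.0129). Map1lc3a also fell in OPN-null, by 1.11 (edgeR adjusted p = 0.0184), while Gabarap rose there by 0.96 (adjusted p = 0.0208).

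Ankrd44 encodes an ankyrin repeat subunit that joins the catalytic subunit of protein phosphatase 6. Its level ran from 27.1 to 97.1 CPM in the 8 unirradiated libraries and from 5.79 to 16.3 CPM in the 10 irradiated ones, with no overlap. The lowest unirradiated value was that of OPN-null 9, in which 10 genes took 84.26% of all counts. Ankrd44 had a log2 fold change of -3.27 ± 0.516 in WT, -2.46 ± 0.429 in OPN-null and -2.72 ± 0.479 in K14-OPN. Some exons of Ankrd44 overlap those of 4930444A19Rik on the opposite strand. Whether counting used strand is not stated in the labels, so it is not known whether reads of the pair were told apart. None of 6 other subunits of the phosphatase passed the test, and their median log2 fold change was -0.28 in WT, -0.1 in OPN-null and 0.07 in K14-OPN. Its close relative Ankrd28 had log2 fold changes of -0.57 ± 0.721, -0.36 ± 0.611 and -0.19 ± 0.649 (edgeR adjusted p = 0.817, 0.782 and 0.942).

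Fam189a2, the gene of the membrane protein that binds ITCH in human cells, ran from 27.5 to 71 CPM without UVB and from 6.18 to 9.01 CPM after it, so that the ranges were well apart. Group means after UVB were 7.34 ± 1.4 CPM (SD, n = 3) in WT, 7.71 ± 1.17 (n = 4) in OPN-null and 7.52 ± 0.96 (n = 3) in K14-OPN. The log2 fold change was -2.7 ± 0.412 in WT, -2.32 ± 0.348 in OPN-null and -2.65 ± 0.387 in K14-OPN, with the smallest SE among the 10 genes in each genotype. Of 10 listed genes, namely 2 relatives, 7 ubiquitin ligases of the NEDD4 type and the chemokine receptor Cxcr4, none passed the test. The relative Fam189b had log2 fold changes of -1.9 ± 1.23, -1.49 ± 1.04 and -0.66 ± 1.1 (edgeR adjusted p = 0.563, 0.432 and 0.855), and the ligase Itch of -0.1 ± 0.465, -0.17 ± 0.389 and 0.01 ± 0.416 (adjusted p = 0.96, 0.84 and 0.997). In the model with library kind Smurf1, another ligase of this type, rose by 1.58 in OPN-null and 1.95 in K14-OPN on the log2 scale (edgeR adjusted p = 0.0162 and 0.0104), and Nedd4 fell by 1.01 in OPN-null (adjusted p = 0.0322).

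Plcxd2 levels were 186 and 114 CPM in unirradiated WT libraries and 5.22, 14.9 and 17.7 CPM after UVB. In OPN-null they were 79.1, 71.9 and 155 CPM without UVB and 6.1, 12, 9.22 and 14.4 CPM after it. Unirradiated K14-OPN libraries had 131, 55.8 and 193 CPM, and irradiated ones 12.8, 7.98 and 4.58 CPM. The lowest unirradiated library was above the highest irradiated one by more than the whole irradiated range. Its log2 fold changes were -3.57 ± 0.635, -3.29 ± 0.537 and -3.91 ± 0.616 in WT, OPN-null and K14-OPN. None of 14 tested relatives and phospholipases C passed the test, and their median log2 fold change was -0.67 in WT, -0.78 in OPN-null and -0.52 in K14-OPN. The relative Plcxd1 had values of -0.23 ± 1.1, -1.38 ± 0.923 and -0.66 ± 0.991 (edgeR adjusted p = 0.96, 0.411 and 0.837), and Plcxd3 did not pass the filter on low counts.

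Tbc1d9 had 31.4 and 51.8 CPM in unirradiated WT libraries and 2.45, 3.64 and 4.21 CPM in irradiated ones. OPN-null libraries had 16.7, 24.9 and 44.5 CPM without UVB and 7.55, 6.14, 1.93 and 3.63 CPM after it. In K14-OPN, libraries 2, 1 and 11 had 43.1, 9.87 and 22.2 CPM without UVB, and 8.07, 8.08 and 6.92 CPM were read after it. No groups overlapped, but K14-OPN 1 was close to the irradiated libraries. The log2 fold change was -3.6 ± 0.65 in WT, -2.59 ± 0.538 in OPN-null and -1.71 ± 0.573 in K14-OPN, and the last was -1.08 without unirradiated K14-OPN 2. Exons of Tbc1d9 overlap those of Gm10645 on the opposite strand, and it is likewise not known whether reads of this pair were told apart. None of 17 other TBC domain genes passed the test. The closest relative, Tbc1d9b, had log2 fold changes of -0.73 ± 0.697, -0.44 ± 0.59 and -0.1 ± 0.63 (edgeR adjusted p = 0.738, 0.717 and 0.971). When library kind was in the model, Tbc1d1 and Tbc1d16 fell in OPN-null by 2.17 and 3.78 on the log2 scale (edgeR adjusted p = 0.0156 and 0.00646) and Tbc1d2 rose by 2.52 in K14-OPN (adjusted p = 0.0097).

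Dab1 encodes the adaptor that the reelin receptors Vldlr and Lrp8 use to pass on the reelin signal, which guides migrating neurons in the brain. Without UVB, WT 10 and the library labelled WT 11 had 6.35 and 35.9 CPM of Dab1, and irradiated WT libraries 3.08, 3.8 and 4.59 CPM. OPN-null libraries had 24.6, 17.8 and 35.5 CPM without UVB and 1.65, 0.921, 0.0878 and 1.57 CPM after it. K14-OPN libraries 2, 1 and 11 had 34.5, 11.9 and 1.15 CPM without UVB, and irradiated ones 2.38, 1.06 and 0.736 CPM. The groups were apart in OPN-null and just apart in WT, and they overlapped in K14-OPN, where library 11 was at the level of the irradiated libraries. The log2 fold change of Dab1 was -2.48 ± 1.03 in WT, -4.61 ± 0.959 in OPN-null and -3.51 ± 1.02 in K14-OPN. It was -0.72 in WT without the library labelled WT 11 and -2.21 in K14-OPN without unirradiated K14-OPN 2.

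Of 15 genes of the reelin pathway, 1 fell in OPN-null. This was Nck2, an adaptor of tyrosine kinase signalling, which went from 35.8 ± 16.6 to 10.3 ± 4.42 CPM, a log2 fold change of -1.8 ± 0.462 (edgeR adjusted p = 0.0411). The call held in 8 of 18 fits without 1 library, with an adjusted p of 0.131 without unirradiated OPN-null 9, and in 3 of 7 other alternatives. Reln, the ligand, had log2 fold changes of -3.04 ± 1.53, -1.64 ± 1.25 and -1.27 ± 1.36, and the receptor Vldlr of -0.06 ± 0.668, -0.86 ± 0.56 and 0.49 ± 0.599, none of which passed (edgeR adjusted p from 0.396 to 0.982). With library kind as a term, Src and Crk, a kinase and an adaptor that act with Dab1, rose in OPN-null and K14-OPN by 0.9 to 1.46 on the log2 scale. In the same model Fyn, the related kinase, fell by 5.2 in WT (edgeR adjusted p = 0.0464).

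Slc38a3 encodes a transporter that carries glutamine with sodium. WT 10 and the library labelled WT 11 had 23.9 and 9.29 CPM without UVB, and 2.06, 0 and 1.63 CPM were read after it. OPN-null libraries had 9.23, 14.2 and 10.9 CPM without UVB and 0.387, 0, 0.615 and 3.04 CPM after it. In K14-OPN the unirradiated libraries 2, 1 and 11 had 10.1, 4.16 and 33.9 CPM and the irradiated ones 0.254, 0.106 and 0.164 CPM. No irradiated library reached the lowest unirradiated one. The irradiated K14-OPN values rest on 2 to 6 counts, and irradiated WT 7 and OPN-null 14, at a count of 0, cannot be told apart from them. In irradiated WT 7 and OPN-null 14 the count of 0 allows up to 0.455 and 0.307 CPM, at 3 counts. Log2 fold changes of Slc38a3 were -3.69 ± 1.29 in WT, -3.43 ± 1.1 in OPN-null and -6.46 ± 1.41 in K14-OPN, with wide errors. It was -5.03 in OPN-null without irradiated OPN-null 16, and -5.3 in K14-OPN without unirradiated K14-OPN 11.

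Glul encodes glutamine synthetase, and it was the single gene to pass among 12 tested transporters of the SLC38 family and enzymes and carriers of glutamine. It fell in OPN-null from 44.8 ± 16.7 to 10.7 ± 6.01 CPM, by 2.07 ± 0.471 on the log2 scale (edgeR adjusted p = 0.0241). In WT its log2 fold change was -2.57 ± 0.561 and in K14-OPN -1.3 ± 0.504 (edgeR adjusted p = 0.0792 and 0.21), and the WT difference also passed in the model with library kind (adjusted p = 0.0167). The OPN-null call held in 14 of 18 fits without 1 library and reached an adjusted p of 0.0867 without unirradiated OPN-null 9, and it held in 5 of 7 other alternatives. The related transporter Slc38a2 had log2 fold changes of 1.19 ± 0.588, 0.58 ± 0.479 and 0.62 ± 0.507 (edgeR adjusted p = 0.409, 0.518 and 0.641).

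Hsd17b14 was high in the 2 libraries with hair shaft RNA. These libraries, WT 10 and K14-OPN 11, were also the highest of all 18 for Calcoco1, Fam189a2, Plcxd2 and Slc38a3. WT 10 and the library labelled WT 11 had 54.9 and 13.6 CPM of Hsd17b14 without UVB, and irradiated ones 8.94, 2.58 and 2.39 CPM. OPN-null libraries had 25.1, 17.8 and 16.2 CPM without UVB and 5.33, 1.23, 0.791 and 2.84 CPM after it. K14-OPN libraries 2, 1 and 11 had 15.1, 14.3 and 95.4 CPM without UVB, and 0.812, 2.18 and 1.28 CPM followed after it. No groups overlapped. Its log2 fold change was -2.87 ± 0.928 in WT, -2.94 ± 0.801 in OPN-null and -4.86 ± 0.961 in K14-OPN. It was -1.44 in WT without unirradiated WT 10 and -3.37 in K14-OPN without unirradiated K14-OPN 11. Of 9 tested hydroxysteroid dehydrogenases and related enzymes, 1 fell. Hsd17b4, which acts in peroxisomal fatty acid oxidation, went from 33.3 ± 13 to 11.7 ± 2.68 CPM after UVB in OPN-null, with a log2 change of -1.51 ± 0.378 (edgeR adjusted p = 0.0364). That call held in 9 of 18 fits without 1 library, with an adjusted p of 0.13 without irradiated OPN-null 14, and in 4 of 7 other alternatives.

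Over all relatives and partners of the 10 genes, 132 of 143 were tested, and their median log2 fold change was -0.22 in WT, -0.06 in OPN-null and -0.03 in K14-OPN. In at least 1 genotype 4 of them fell (3.03%) and 2 rose (1.52%), against 1.76% and 2% of all genes, so both shares were near the background. Each of these 6 calls was in OPN-null. No relative was called in WT or K14-OPN, and the test of the difference in UVB response between genotypes called none of the 132 in any of the 3 comparisons (edgeR, lowest adjusted p = 1), with 4, 2 and 1 at an unadjusted p below 0.05. With library kind as a term, 19 relatives fell (14.4%, against 8.98% of all genes) and 11 rose (8.33%, against 8.39%).

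**Figure D2:**
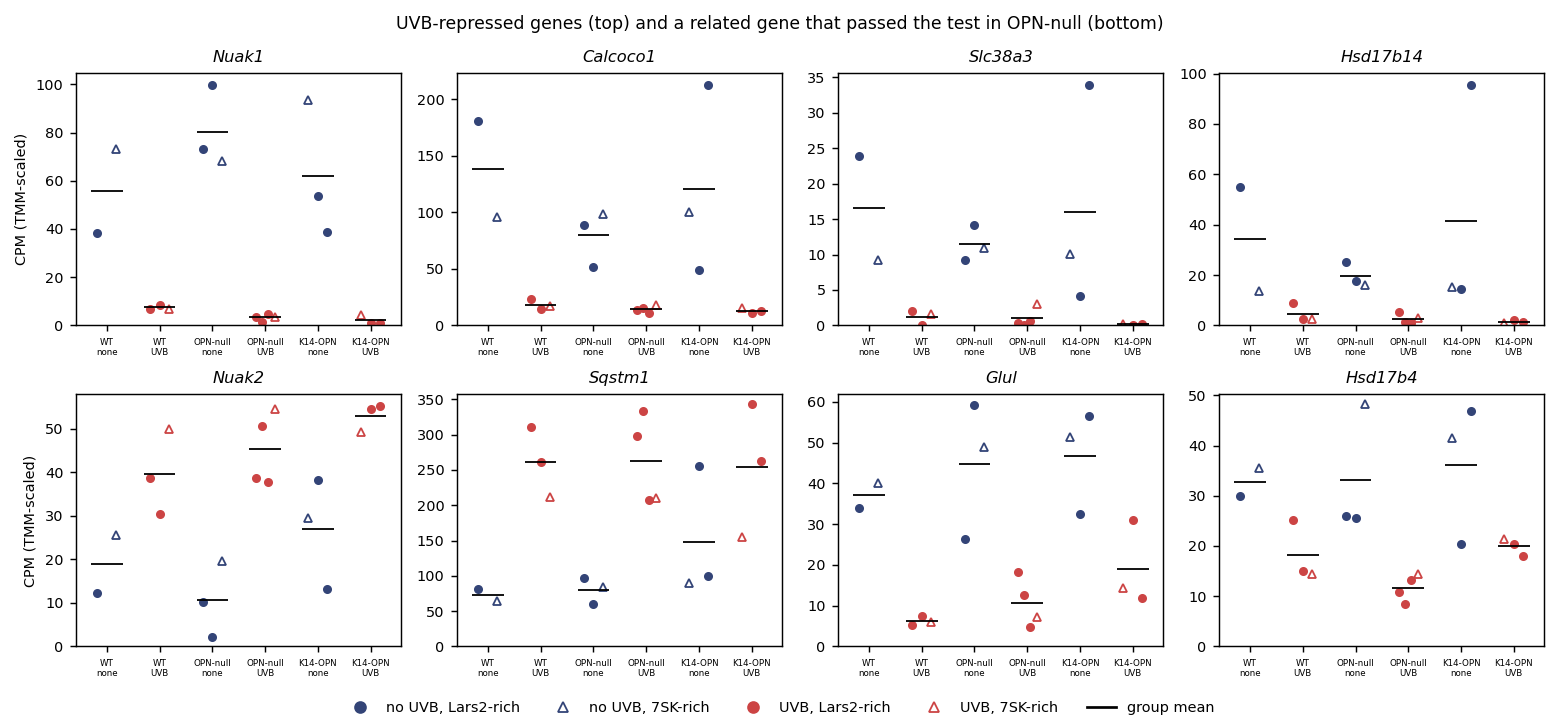
Levels in CPM, on linear axes from 0, of 4 of the UVB-repressed genes (top) and of a related gene of each that passed the test in OPN-null (bottom), in all 18 libraries. Symbols and colours are as in the plot of all 10 genes, and bars are group means. Group means of Nuak2 and Sqstm1 are higher after UVB where those of Nuak1 and Calcoco1 are lower. Those of Glul and Hsd17b4 are lower after UVB, as are those of Slc38a3 and Hsd17b14. In K14-OPN the irradiated and unirradiated libraries overlap for Sqstm1 and Hsd17b4. In the main model the 4 related genes passed in OPN-null only.

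Genotype differences averaged over both UVB states do not use the contrasts that chose the genes, and they were tested. None of the 10 genes passed in WT against OPN-null, K14-OPN against OPN-null or K14-OPN against WT (edgeR, lowest adjusted p = 1, 0.952 and 1), none reached an unadjusted p below 0.05, and DESeq2 called 0. The count was also 0 without the library labelled WT 11. The shares of all genes called, in either direction, were 0.00529%, 0% and 0.00529%. When library kind was added, the lowest adjusted p values were 0.681, 0.486 and 0.868, and 1 gene had an unadjusted p below 0.05. The widest differences were those of Slc38a3, which was lower in K14-OPN than in WT by a log2 difference of -1.42 ± 0.848, and of Slc38a3 between K14-OPN and OPN-null at -1.02 ± 0.789. Nuak1 differed between K14-OPN and WT by -0.84 ± 0.415. The narrowest errors were those of Fam189a2, with differences of 0.12 ± 0.267, 0.13 ± 0.251 and 0.01 ± 0.274 in the same order. A p that misses the threshold does not show that the genotypes are alike.

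**Figure D3:**
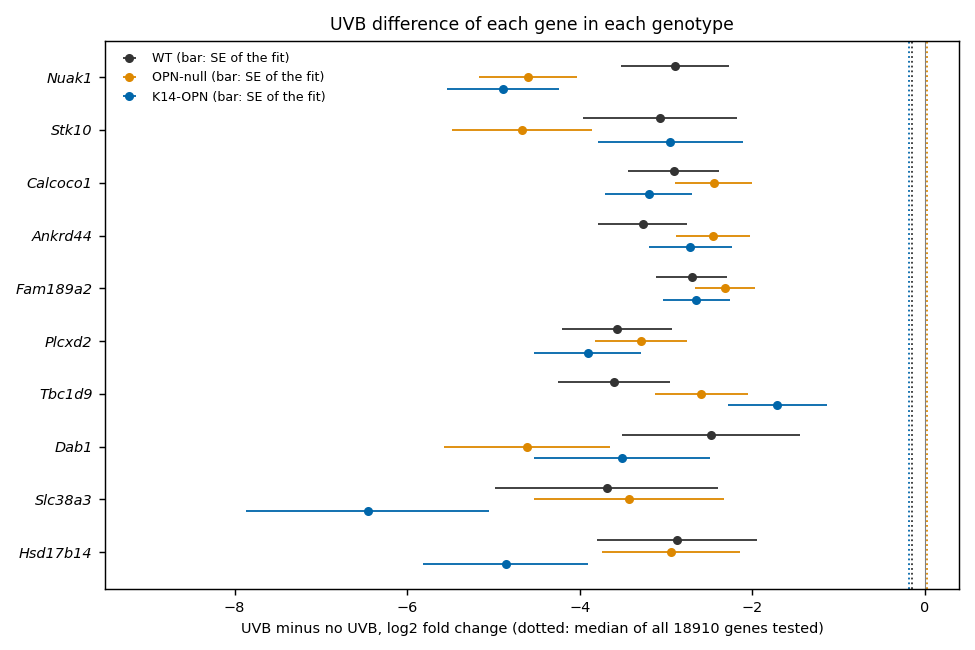
Log2 fold change between irradiated and unirradiated libraries of each of the 10 genes in WT, OPN-null and K14-OPN. Points are estimates of the fit to all 18 libraries, bars are 1 SE, and dotted lines are the medians of all 18910 genes tested. All 30 points are below 0, from -1.71 for Tbc1d9 in K14-OPN to -6.46 for Slc38a3 in K14-OPN.

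The order of the fitted values among the genes was as follows, with no test of it. In WT the log2 fold changes ran from -3.69 for Slc38a3 to -2.48 for Dab1. In OPN-null Stk10, Dab1 and Nuak1 were lowest, at -4.67, -4.61 and -4.6, and Fam189a2 was highest. In K14-OPN Slc38a3, Nuak1 and Hsd17b14 were lowest and Tbc1d9 highest. Many neighbours lie within their SEs, and single libraries change the order, as for Slc38a3 in OPN-null (-5.03 without irradiated OPN-null 16) and Hsd17b14 in K14-OPN (-3.37 without unirradiated K14-OPN 11). The comparisons of WT and of K14-OPN with OPN-null share the OPN-null libraries, and the differences between genotypes in UVB response of the 10 genes were not tested, since the choice of genes rests on them.

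Between library kinds, 2 of the 10 genes differed within groups, which is not above the share of all genes called. Dab1 was higher in 7SK-rich libraries by 1.38 ± 0.465 on the log2 scale and Stk10 by 1.15 ± 0.418 (edgeR adjusted p = 0.0249 and 0.0353), against 26.2% of all genes called higher in 7SK-rich libraries and 15.7% called lower. Nuak1 had a difference of 0.66 ± 0.294 and Hsd17b14 of -0.96 ± 0.472 and did not pass (edgeR adjusted p = 0.0789 and 0.112). The count of 2 became 0 without unirradiated WT 10, the library labelled WT 11 or unirradiated K14-OPN 2, became 1 without irradiated K14-OPN 1, irradiated OPN-null 14 or unirradiated OPN-null 8, and reached 3 without unirradiated K14-OPN 11 or irradiated OPN-null 15. In WT and K14-OPN the differences of Stk10 and Dab1 after UVB were smaller in Lars2-rich than in 7SK-rich libraries. The only unirradiated Lars2-rich WT library is WT 10, and K14-OPN 11 is 1 of 2 in K14-OPN, and both are the libraries with hair shaft RNA. The log2 CPM difference of Stk10 was -0.96 in WT and -1.35 in K14-OPN among Lars2-rich libraries, and -3.97 and -3.98 among 7SK-rich ones. For Dab1 the values were -0.86 and -1.93 against -2.93 and -3.77. In OPN-null both kinds gave Stk10 and Dab1 differences between -4.94 and -4.38. For Nuak1 the difference was -2.29 or lower in every kind and genotype.

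Summed levels of some markers of other cell types also differed after UVB. In bulk RNA, fewer cells of a type and less RNA per cell cannot be told apart. The 12 dermal fibroblast markers summed to 3720 to 4550 CPM in unirradiated and 18.6 to 594 CPM in irradiated OPN-null libraries, and 5 of the 11 tested fell (edgeR). Their sums were 187 to 2940 CPM against 86.5 to 337 CPM in WT, and 573 to 3280 CPM against 93.6 to 213 CPM in K14-OPN, where Mfap5 was at 0 without UVB, and none passed there. The 12 hair shaft markers summed to 33.3 to 103000 CPM in unirradiated WT and 21.4 to 45.7 CPM in irradiated WT, where Krt35 was at 0. In OPN-null their sums were 36.7 to 342 against 23.1 to 87.8 CPM, and in K14-OPN 29.4 to 118000 against 6.85 to 106 CPM. The 7 melanocyte markers summed to 11.2 to 308 against 4.31 to 13.4 CPM in WT, to 7.16 to 80.5 against 1.32 to 11.6 CPM in OPN-null, where Tyr was at 0 without UVB, and to 8.28 to 392 against 5.58 to 8.56 CPM in K14-OPN. Langerhans and antigen presenting cell markers (8) summed to 430 to 453 CPM without UVB and 186 to 268 CPM after it in OPN-null, to 34 to 358 against 201 to 363 CPM in WT, and to 38 to 460 against 268 to 415 CPM in K14-OPN. Schwann cell markers (6) summed to 69.7 to 152 against 35 to 45.2 CPM in OPN-null, 35.5 to 78.4 against 31.1 to 44.5 CPM in WT, and 44.1 to 71.4 against 36.8 to 38 CPM in K14-OPN. Endothelial markers (7) summed to 1.67 to 21 against 18.2 to 22 CPM in K14-OPN, and their sums overlapped there and in the other genotypes. The sums for sebaceous gland, epidermal T cells, muscle and adipocytes overlapped in every genotype, and Adipoq and Lep were at 0 in all 6 groups. No marker outside the fibroblast list passed the test in the main model. With the kind term, 7 fibroblast markers fell in OPN-null and 3 in K14-OPN, 7 hair shaft markers fell in K14-OPN and 2 in WT, and 1 melanocyte marker fell in each of those genotypes. In that model Nkg7 and Vwf fell in OPN-null, and 1 Schwann cell marker fell in OPN-null and 1 in K14-OPN. Of the keratinocyte markers, 1 rose in OPN-null and 3 in K14-OPN in the same model. With the group means removed, the median r over the 18 libraries between the 10 genes and a list's level was -0.07 for fibroblasts and -0.289 to 0.182 for the other lists. These medians cover r of both signs. For fibroblasts r ran from -0.341 for Fam189a2 to 0.779 for Dab1. For hair shaft it ran from -0.743 for Dab1 to 0.739 for Hsd17b14. For Langerhans and antigen presenting cells it ran from -0.7 for Fam189a2 to 0.83 for Stk10. The part of these cell types in the differences of the 10 genes was not tested. The UVB differences of the 10 genes without the 2 libraries rich in hair shaft RNA and OPN-null 9 had medians of -3.23 in WT, -3.13 in OPN-null and -3.42 in K14-OPN. This WT value has the library labelled WT 11, whose label was not borne out by Spp1, as its only unirradiated library.

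Levels of different genes were compared as CPM per kilobase of exon. In unirradiated OPN-null epidermis Stk10, Nuak1, Plcxd2, Calcoco1 and Fam189a2 stood at 13.3 to 14.6 CPM per kilobase and did not differ beyond their spread. Hsd17b14 followed at 9.62 ± 2.32 (SD, n = 3), then Tbc1d9 at 4.88 ± 2.43, Ankrd44 at 4.4 ± 2.47 and Dab1 at 3.29 ± 1.13, which overlapped one another, and Slc38a3 at 2.17 ± 0.483. In unirradiated WT and K14-OPN the means ran from 2.67 and 2.01 CPM per kilobase for Dab1 to 24.1 and 21 for Calcoco1, but the spread was wide. Hsd17b14 had 20.3 ± 22.8 CPM per kilobase in K14-OPN, Slc38a3 had 3.14 ± 1.96 and Dab1 2.67 ± 2.64 in WT, and the order rests in part on the libraries with hair shaft RNA. After UVB the highest mean was 3.21 CPM per kilobase for Calcoco1 in WT, 2.67 for Fam189a2 in OPN-null and 2.61 for Fam189a2 in K14-OPN. The lowest was Slc38a3 in WT and K14-OPN, at 0.233 and 0.0331 CPM per kilobase, and Dab1 in OPN-null at 0.134.

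All 10 genes are protein coding, and they lie on 10 different chromosomes. They tended to be long. Their median span was 63981 bases, against 23002 bases for the 14288 coding genes tested, and 7 of the 10 were above that median. Dab1, at 1125486 bases, was longer than all but 0.112% of them, and Ankrd44, at 281048 bases, longer than all but 2.69%. Hsd17b14 and Calcoco1, at 12860 and 15402 bases, were the shortest. When the other coding genes were split by span into 5 bins of about equal size, the median log2 fold change after UVB went from 0.38 in the shortest bin to -0.84 in the longest in WT, from 0.54 to -0.61 in OPN-null and from 0.04 to -0.56 in K14-OPN. The share of genes that fell in OPN-null went from 0.805% to 3.82%. The Spearman correlation of span and log2 fold change across 14278 genes, which share the same libraries, was -0.307 in WT, -0.256 in OPN-null and -0.172 in K14-OPN. The 10 genes lay below the median of their bin in all 3 genotypes, which follows largely from their choice as genes that fell. The part of span in their differences was not tested.

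**Figure D4:**
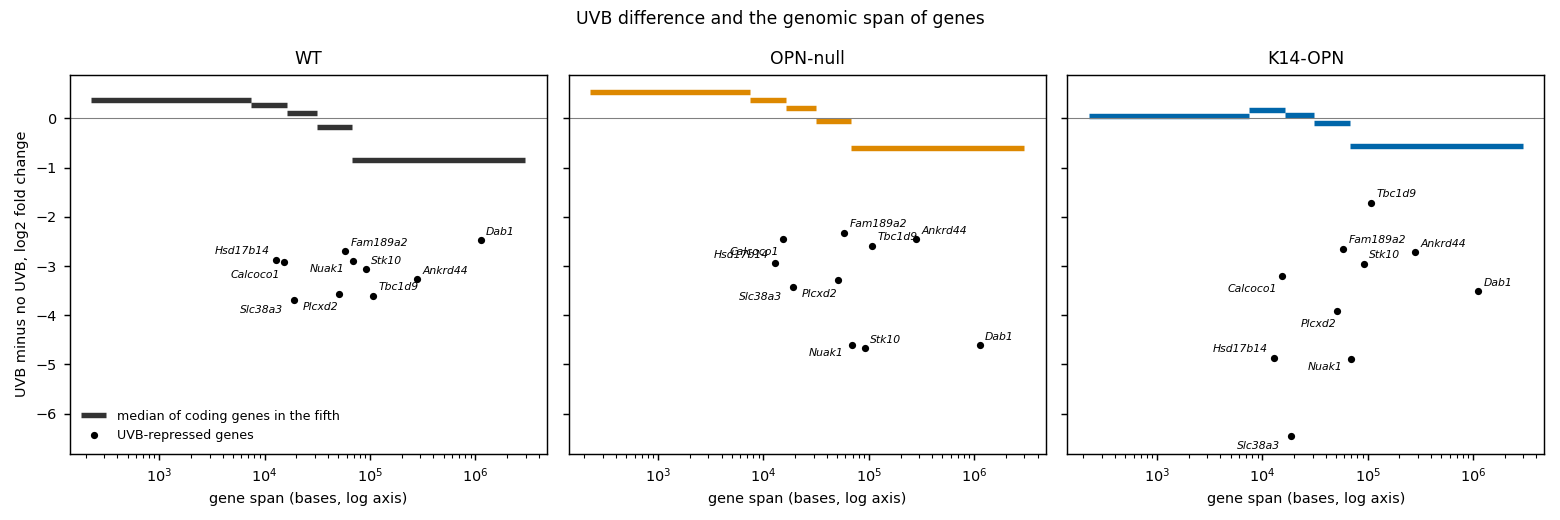
Log2 fold change after UVB against the genomic span of the gene (bases, log axis) in WT, OPN-null and K14-OPN. Black points are the 10 genes, and coloured lines are the medians of the other tested coding genes in 5 bins of span. The medians are lowest in the longest bin, at -0.84 in WT, -0.61 in OPN-null and -0.56 in K14-OPN. The 10 genes, chosen because they fell after UVB, lie below them.

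Across the 18 libraries the 10 genes rose and fell together, as genes picked on a shared contrast must in part. The Pearson r of log2 CPM over the 45 pairs had a median of 0.832, from 0.592 for Hsd17b14 with Dab1 to 0.958 for Fam189a2 with Calcoco1. With the group means removed the median was 0.097, and Dab1 with Stk10 was the pair most alike, at 0.881. Among 10419 genes ranked by their likeness to the mean of the 10 genes over 18 libraries, Ppl was the first (r = 0.974), followed by Cds1 (0.97), Plekha5 (0.968), Tln2 (0.966), Acpp (0.962), Palm (0.962), Mycl (0.961), Tnk2 (0.958), Ankrd27 (0.954) and Adgra3 (0.953). Ppl encodes periplakin of the cornified envelope and desmosomes, and Cds1 an enzyme of phosphatidylinositol synthesis. For single genes, those among the most alike included Ago4 for Nuak1 (r = 0.967), Cgn and Ano8 for Stk10 (0.969 and 0.965), Gpr157 and Epb41l4b for Calcoco1 (0.96 and 0.957), and Esrp1 and Mdfic for Ankrd44 (0.94 and 0.932). Cds1 and Pard3b came first for Fam189a2 (0.962 and 0.955), Mob3b and Cds1 for Plcxd2 (0.954 and 0.949), and Gpsm1 and Atp2a3 for Tbc1d9 (0.929 and 0.924). For Dab1 they were Cgn and Hlf (0.957 and 0.954), for Slc38a3 Repin1 and Prickle1 (0.938 and 0.926), and for Hsd17b14 Mospd1 and Acpp (0.948 and 0.947). These r describe 18 libraries that share the UVB difference, and no test was made of them.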

How the data were processed

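The authors deposited whole-number counts of reads per gene for 18 libraries in a single table that had not been normalized. GRCm38 is the build in the submitters' processing notes, which also list HTSeq 0.11.3, STAR 2.7.5a, Trim Galore 0.6.5 and bcl2fastq 2.18.0.12. Annotation release, counting mode and strand use are not given in the sources. Of 56246 genes, 55144 were matched by identifier to a GENCODE M21 symbol. The 5 summary lines of the counting program name no gene and were left out. They held 20.75 to 50.36% (outside genes), 2.507 to 13.87% (ambiguous) and 12.1 to 29.25% (several alignments) of the reads in the table.

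From these counts, edgeR 4.0.16 with limma 3.58.1 gave the tests (R 4.3.3), and DESeq2 1.42.0 was an alternative. The filter was filterByExpr with a minimum count of 10 and a minimum total of 15, followed by TMM scaling. A quasi-likelihood model of the 6 group means took in all libraries, so that small groups shared their estimate of spread, with Benjamini-Hochberg adjustment over all 18910 genes of a contrast. Tests are two-sided. Log2 CPM uses a prior count of 2. Library kind was taken from whether Rn7sk or Lars2 had more counts. It was left out of the main model and added as an alternative, and the biological coefficient of variation was 0.8159 without it and 0.5946 with it. Without molecular identifiers a read need not be a separate molecule, and limits from a count of 0 cover counting error only. All pairs of libraries within a group differed by more than sampling noise. The fitting was tested on simulated data that were given less spread than the main model found in these libraries. That test therefore does not measure how often calls made here are wrong.

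The 10 genes, the lists of relatives and markers and the tests were chosen with earlier results of these data known. The text names the 10 genes, the relatives that passed in at least 1 UVB contrast, and genes by likeness. The likeness rule takes the 10 genes with the highest Pearson r to the mean z-score of the 10, and the 2 with the highest r to each of them. Some results are not reported here. It ranks genes with a mean log2 CPM of at least 1 and a symbol that is no clone name. Other relatives (Slk, Stk11, Ankrd28, Fam189b, Itch, Plcxd1, Plcxd3, Tbc1d9b, Reln, Vldlr and Slc38a2) and those named with library kind as a term were chosen after their values were seen. Alternatives were RLE scaling, no filter, DESeq2, library kind as a term, Lars2-rich libraries only, fits without libraries that stand apart, fits of the compared libraries only, a replicate block, and each library left out. Every per-sample column was used.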

Additional observations from a re-analysis of the deposited data

How the results depend on the processing

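All 760 values of the UVB log2 fold changes of the 10 genes under the alternatives were below 0, and 737 moved by less than 1 SD between replicates. The median of the 10 genes in WT went from -2.99 to -3.25 in Lars2-rich libraries only and -3.23 without the 3 libraries that stand apart (unirradiated WT 10, K14-OPN 11 and OPN-null 9). The first of these fits has WT 10 as its only unirradiated WT library, and the second has the library labelled WT 11. Leaving out each library gave medians of -3.21 to -2.89 in WT, -3.24 to -2.88 in OPN-null and -3.75 to -3.03 in K14-OPN. No gene of the 10 differed between genotypes in any alternative (0 to 0), and the count that differed between library kinds was 0 to 3 over libraries left out.

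Counts of all genes that fell depended on the model. The WT count of 6 became 328 in the model with library kind, 464 without the filter, 375 in DESeq2, and 0 in Lars2-rich libraries only, without the 3 libraries, and in a fit of the compared libraries only. The OPN-null count of 294 became 1229, 581 and 1166 in the first 3 of these and 650 in Lars2-rich libraries. The K14-OPN count of 104 became 838, 661 and 830, then 428 in Lars2-rich libraries, 192 without the 3 libraries and 0 in the fit of the compared libraries. Over libraries left out the ranges were 0 to 235 in WT, 85 to 416 in OPN-null and 3 to 369 in K14-OPN. Of the relatives, 4 fell and 2 rose. These became 19 and 11 in the model with library kind, 17 and 5 in DESeq2, and 7 and 14 in Lars2-rich libraries, and 0 to 5 fell and 0 to 4 rose over libraries left out. The cause of these changes was not tested. Fits with a lone unirradiated WT library assume that it varies like the others.

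The numbers 1 and 2 of K14-OPN libraries occur in both UVB states. Same-numbered libraries deviated in opposite directions (r = -0.451 and -0.578), so the numbers were not taken as pairs. With the replicate block the K14-OPN count was 0, and 2 relatives fell and 1 rose. With the numbers crossed, the libraries of a pair share a kind (r = 0.636 and 0.34). In this alternative, chosen after seeing the data, the K14-OPN count was 1. The medians of the 10 genes and the counts of relatives that rose were also added after seeing the data. Depth limits Slc38a3 most, with 0 to 62 counts in irradiated libraries.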

Other observations

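With the group means removed, which takes out the UVB and genotype differences, the genes most like the mean of the 10 over the 18 libraries were Exd2 (r = 0.934), Paqr8 (0.928), Stt3b (0.915), Zdhhc9 (0.877), Myzap (0.87), Stim1 (0.869), Fyco1 (0.869), Atp13a2 (0.869), Sh3tc2 (0.867) and Taf4b (0.864). Stt3b encodes a catalytic subunit of the oligosaccharyltransferase of the endoplasmic reticulum, and Stim1 its calcium sensor. Paqr8 and Myzap fell after UVB in OPN-null, with log2 fold changes of -2.51 and -3.51 (edgeR adjusted p = 0.00933 and 0.0154). In K14-OPN, Paqr8 and Stim1 fell, with log2 fold changes of -2.6 and -1.59 (edgeR adjusted p = 0.0255 and 0.0318). Stt3b and Taf4b had log2 fold changes between -0.29 and 0.95 and passed in no genotype. None of the 10 genes most alike with the group means left in was among these.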
